A study of Homo sapiens with 12 samples.

Results

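The 43 genes described here encode the subunits of RNA polymerase II (Pol II) and of the general transcription factors that join it in the preinitiation complex. They were taken by name: 12 subunits of the Pol II core, 14 of TFIID, 7 of TFIIA, TFIIB, TFIIE and TFIIF, and 10 of TFIIH, out of 58735 gene IDs in the table of the 24 h libraries. All 43 were listed at 24 h and 42 at 48 h, where GTF2H4 was not listed. The cells were KYSE150, an established human oesophageal squamous cell carcinoma line, in which ANLN was knocked down with small interfering RNA (group siANLN) or which were transfected with the control that the labels name NC (group siNC, given as WT). Polyadenylated RNA was sequenced at 24 h or 48 h of knockdown, giving 4 groups of 3 libraries and 12 libraries altogether, with no other alteration of the line named in the labels. ANLN encodes anillin, an actin-binding scaffold of the contractile ring, and the series concerns nuclear ANLN and the clustering of Pol II at transcription initiation. The comparison addresses whether the transcripts of the initiation machinery itself changed after ANLN siRNA. The labels name 1 siRNA per arm, so loss of ANLN and other effects of that siRNA cannot be told apart.

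Pol II starts transcription at protein-coding genes only with help from the general factors. TFIID, built of the TATA-binding protein (TBP) and its associated factors (TAFs), recognises the core promoter, TFIIA and TFIIB hold TBP on DNA and position the polymerase, TFIIF escorts Pol II into the complex, and TFIIE recruits TFIIH. TFIIH carries a translocase that opens the DNA, and its kinase module phosphorylates the C-terminal domain of the largest Pol II subunit as initiation proceeds.

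Library totals ran from 14891932 to 17921808 counts at 24 h and from 11805488 to 12448411 at 48 h. By the labels the libraries are biological replicates. The sources used here do not say whether each had its own transfection, so p-values measure the spread between these libraries. ANLN itself was 892 ± 17 CPM (read counts scaled to the effective library size) in siNC and 104 ± 6.12 CPM in siANLN at 24 h, and 731 ± 8.09 against 80.8 ± 5.36 CPM at 48 h (mean ± SD, n = 3), so the knockdown was present in the libraries labelled so. All 7 squamous epithelial markers looked at were above 5 CPM in each group, with summed levels of 3845 to 4106 CPM in siNC and 3070 to 3181 CPM in siANLN at 24 h, and 4969 to 5155 against 2532 to 2604 CPM at 48 h. Of 11 markers of fibroblasts, endothelial, blood and immune cells, 9 of 11 listed at 24 h and 7 of 10 listed at 48 h were under 1 CPM, and their sums were 7.42 to 10.5 CPM (siNC) and 6.73 to 8.21 CPM (siANLN) at 24 h, and 55.8 to 63.6 CPM and 74.8 to 77.4 CPM at 48 h. COL1A1 (6.01 CPM in siNC at 24 h, 19.2 at 48 h) and CD68 (38.6 CPM in siNC and 63.8 in siANLN at 48 h) were the ones above 5 CPM. Their part in the results below was not tested.

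A minority of the machinery moved at 24 h and more of it at 48 h, and the changes were small. Transcripts of the Pol II stalk subunit POLR2D and of the assembly subunit POLR2C rose at both times, those of POLR2A and of the TFIIA gene GTF2A1 fell at both, and the TFIIF gene GTF2F2 rose at 48 h. At 24 h, 42 of the 43 genes could be tested, of which 4 rose (POLR2C, POLR2D, TAF5 and GTF2H1), 2 fell (POLR2A and GTF2A1) and 36 did not pass the test (edgeR quasi-likelihood test, Benjamini-Hochberg adjusted p under 0.05). That is 14.3% of the genes tested, against 10.8% of all genes tested at 24 h (5.93% higher and 4.86% lower). At 48 h, 41 could be tested: 12 rose (POLR2B, POLR2C, POLR2D, POLR2E, POLR2F, POLR2I, TAF7, TAF10, TAF11, GTF2F1, GTF2F2 and GTF2H3) and 4 fell (POLR2A, TAF8, GTF2A1 and GTF2E2). The share called, 39.0%, lay below the 43.6% of all genes tested at 48 h, so as a count of calls the machinery did not stand above the background. By direction, 12 of 41 rose where 22.2% of all genes did, and 4 of 41 fell where 21.3% did. The median log2 change (siANLN over siNC) of the machinery was −0.0020 at 24 h and 0.08 at 48 h, beside −0.0052 and −0.0027 over all genes tested. In bulk RNA, fewer cells with a transcript and less RNA per cell cannot be told apart.

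The siANLN and siNC libraries did not overlap for 12 of the 42 genes tested at 24 h (28.6%, against 25.6% of all genes) and for 21 of 41 at 48 h (51.2%, against 49.7%). Both shares were near the background. The plot of log2 changes shows every gene of the machinery at both times.

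**Figure D1:**
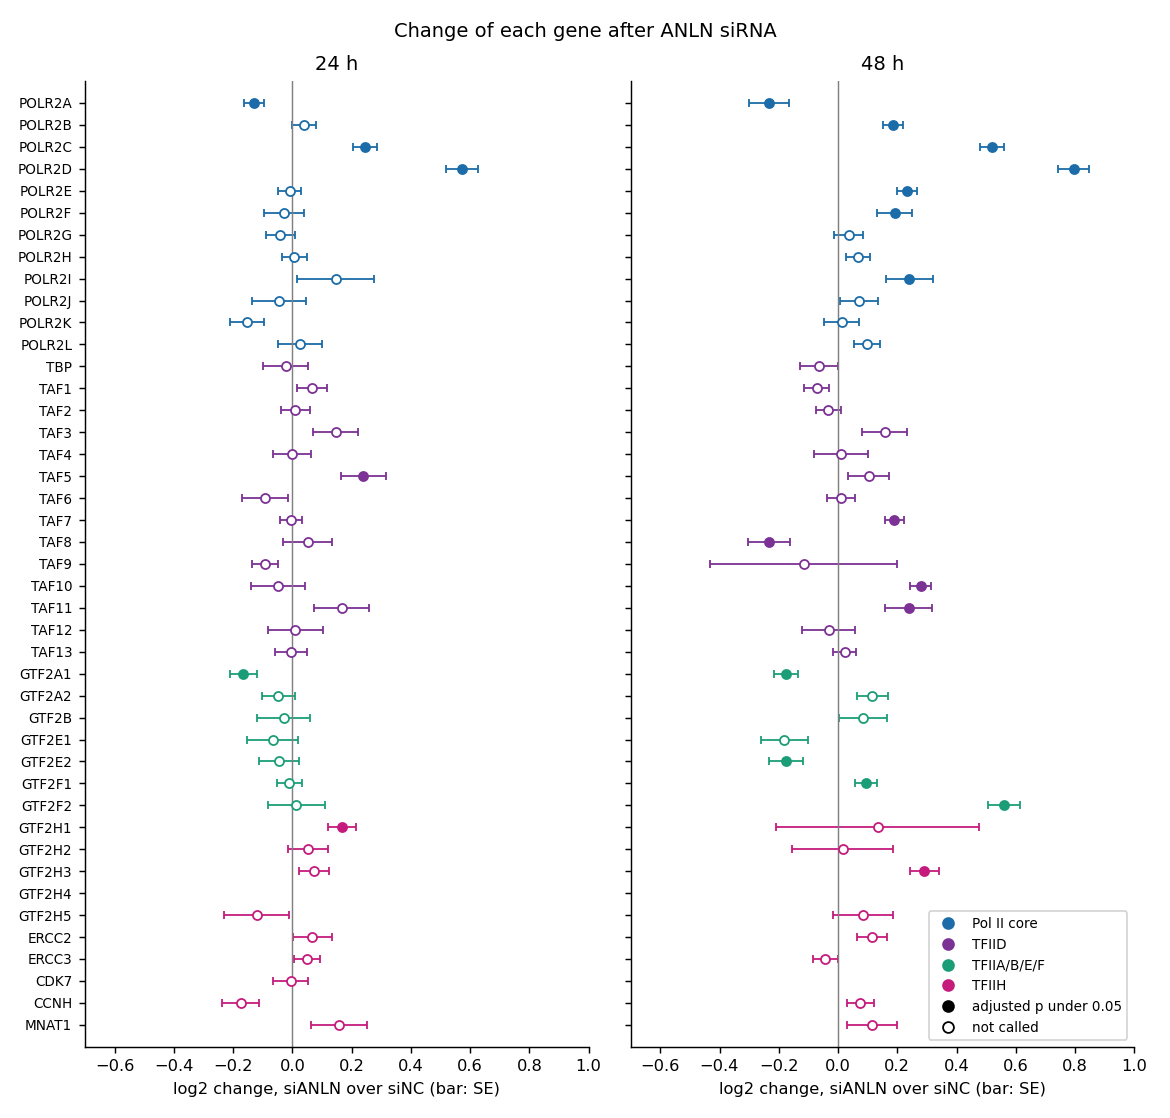
Log2 change of each gene, siANLN over siNC, at 24 h (left) and 48 h (right), with bars for the SE of the edgeR fit over 3 libraries a group. Filled points passed an adjusted p under 0.05 and open points did not. POLR2D lies farthest to the right at both times (0.57 and 0.80), followed by GTF2F2 (0.56) and POLR2C (0.52) at 48 h, while most points lie within 0.2 of 0. GTF2H4 has no point and CDK7 none at 48 h, since they were not tested there.

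POLR2D (ENSG00000144231, GRCh38 chromosome 2, 127843551 to 127858157, minus strand) encodes one of the pair of subunits that form the stalk of Pol II, the other being POLR2G. Its level was 51.8, 55.1 and 50.4 CPM in the siNC libraries and 78.6, 78.8 and 76.9 CPM in the siANLN libraries at 24 h. The 48 h values were 45.2, 43.3 and 46.8 CPM in siNC and 79.0, 73.6 and 82.0 CPM in siANLN. Every siANLN library was above every siNC library at both times, and the siNC levels of the 2 times lay close together. The rise was 1.49-fold at 24 h (log2 0.57, SE 0.05; edgeR Benjamini-Hochberg adjusted p = 1.04e-13) and 1.73-fold at 48 h (log2 0.80, SE 0.05; edgeR Benjamini-Hochberg adjusted p = 7.66e-40). Among the genes of the machinery tested it was the largest change at each time. Its partner POLR2G did not pass the test, with log2 changes of −0.04 (SE 0.05) at 24 h and 0.04 (SE 0.05) at 48 h.

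POLR2C (ENSG00000102978, chromosome 16, 57462387 to 57472010, plus strand) encodes a subunit that pairs with POLR2J as the platform on which the polymerase assembles. At 24 h its libraries held 138, 137 and 140 CPM in siNC and 167, 163 and 161 CPM in siANLN. The 48 h libraries held 87.8, 87.9 and 86.3 CPM in siNC and 121, 130 and 126 CPM in siANLN. The groups were apart at both times, by 1.19-fold at 24 h (log2 0.25, SE 0.04; edgeR Benjamini-Hochberg adjusted p = 1.79e-06) and 1.43-fold at 48 h (log2 0.52, SE 0.04; edgeR Benjamini-Hochberg adjusted p = 2.85e-30). POLR2J, its partner, gave −0.04 (SE 0.09) and 0.07 (SE 0.06) and was not called. Each of the POLR2C and POLR2D calls was kept under all 11 alternative settings at each time.

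The promoters of POLR2D and POLR2C, which rose at both times, and of GTF2F2, the next largest rise at 48 h, are printed as RefSeq has them on GRCh38.p14, as 300 bases around the start of the gene. Capitals mark matches, on either strand, to any of 4 promoter words. These are TATAAA, which TBP can bind, GGGCGG, known for binding of the Sp family, CCGGAAG, a core recognised by ETS family factors, and ATTGG, the word of the factor NF-Y. The coordinates are chr2:127858106-127858405 (minus strand) for POLR2D, chr16:57462429-57462728 (plus) for POLR2C and chr13:45120260-45120559 (plus) for GTF2F2.
POLR2D: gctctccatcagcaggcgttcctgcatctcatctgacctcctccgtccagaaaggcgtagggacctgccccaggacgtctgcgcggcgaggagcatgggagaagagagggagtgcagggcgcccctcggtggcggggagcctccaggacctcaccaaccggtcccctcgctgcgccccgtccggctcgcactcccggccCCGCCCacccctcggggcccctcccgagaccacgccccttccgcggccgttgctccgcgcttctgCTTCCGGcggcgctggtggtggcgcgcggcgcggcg
POLR2C: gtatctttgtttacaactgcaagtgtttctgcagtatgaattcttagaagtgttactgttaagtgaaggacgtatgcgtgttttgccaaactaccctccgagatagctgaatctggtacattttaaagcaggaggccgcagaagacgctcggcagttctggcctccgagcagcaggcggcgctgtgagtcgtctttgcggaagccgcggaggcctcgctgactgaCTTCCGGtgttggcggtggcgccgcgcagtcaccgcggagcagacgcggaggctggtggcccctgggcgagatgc
GTF2F2: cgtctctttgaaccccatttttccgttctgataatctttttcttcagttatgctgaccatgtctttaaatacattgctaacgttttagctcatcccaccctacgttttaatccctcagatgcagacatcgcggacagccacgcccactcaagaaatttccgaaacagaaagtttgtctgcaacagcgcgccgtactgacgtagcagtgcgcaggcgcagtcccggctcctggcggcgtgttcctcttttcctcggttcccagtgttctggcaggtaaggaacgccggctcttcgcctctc
POLR2D and POLR2C each hold 1 match to CCGGAAG, printed as its reverse complement, POLR2D also holds 1 match to GGGCGG, and GTF2F2 holds none of the 4 words. CCGGAAG was not limited to genes that rose. It also stands in GTF2A1, which fell at both times, in GTF2H1 (higher at 24 h) and in POLR2F, GTF2F1 and GTF2H3 (higher at 48 h). ERCC3, GTF2A2, GTF2H2, TAF1, TAF3, TAF12 and TAF13 hold it and were not called at either time. Of 36 promoters of the 43 genes found in the RefSeq table, 14 (38.9%) hold CCGGAAG, against 10.7% of 27305 promoters of the same length. The 27305 take 1 promoter per gene symbol and were not limited to genes tested here, so the sets can differ in kind. GGGCGG stood in 22 (61.1%, against 44.6%), ATTGG in 7 (19.4%, against 35.7%) and TATAAA in 1, that of GTF2B (2.78%, against 11.95%). A match is only a match of letters, and no match says only that the letters are not in this window.

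POLR2D also holds, in its annotated 3′ UTR, words that an earlier look at these data picked for how the genes with them changed. TCGGAGA or CGGAGAA stands in the 3′ UTR of 589 of 12598 genes searched (4.68%), and TTCCCAA or TCCCAAA in 4143 (32.9%). Within a pair the words overlap, so 1 stretch of letters can match both. Of 42 genes of the machinery searched, POLR2D holds both words of the first pair, which overlap in 1 stretch, and ERCC2 holds CGGAGAA alone. At least 1 word of the second pair stands in these 2 and in TAF8, GTF2E1, GTF2H3 and GTF2H5, GTF2E1 having TCCCAAA alone. The sites are shown because POLR2D changed most and ERCC2, which shares the word CGGAGAA with it, was not called. Capitals mark the word, at chr2:127848068-127848097 (minus strand) for POLR2D, chr19:45350319-45350348 (minus) for ERCC2, chr12:123660355-123660384 (plus) for GTF2H3 and chr6:42079490-42079519 (plus) for TAF8.
POLR2D, first pair: atcactgctgcTCGGAGAaaccacatcccc
ERCC2, first pair: gctgaggcctgCGGAGAAgggagtgtctgg
GTF2H3, second pair: acagaaaatatTTCCCAAacatccttttca
TAF8, second pair: aataagcttgtTTCCCAAattagaatccta
Holders of the words did not move alike. Of the genes with a word of the first pair, POLR2D rose and ERCC2 gave 0.07 (SE 0.06) at 24 h and 0.11 (SE 0.05) at 48 h, not called. Of the other genes with a word of the second pair, GTF2H3 rose and TAF8 fell at 48 h, and GTF2E1 and GTF2H5 were not called at either time. POLR2C, GTF2F2 and POLR2A hold none of the 4 words. The siRNA sequences are not given in the sources used here, and the part of these words in the changes was not tested.

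POLR2A, POLR2B, POLR2C, POLR2D, POLR2G, POLR2I and POLR2J are the 7 subunits found in Pol II alone. Of these, 2 rose and 1 fell at 24 h, and 4 rose and 1 fell at 48 h. Beside them stand the 10.8% and 43.6% of all genes tested that were called. POLR2B, which forms the active centre together with POLR2A, was 157, 158 and 164 CPM in siNC and 187, 173 and 184 CPM in siANLN at 48 h (log2 0.18, SE 0.03; edgeR Benjamini-Hochberg adjusted p = 5.2e-07). Its change at 24 h, 0.04 (SE 0.04), was not called. POLR2I rose at 48 h by 0.24 (SE 0.08), a call lost in DESeq2 and without siNC replicate 1 or siANLN replicate 1. Of its exonic bases 79.6% are shared with genes on the opposite strand (TBCB, OVOL3 and AD001527.2). The strand setting of the counting is not given in the sources used here, so reads of POLR2I and of those genes cannot be told apart. POLR2B shares 12.4% of its exonic bases with IGFBP7 and NOA1, of which IGFBP7 gave 0.30 (SE 0.04) and NOA1 −0.08 (SE 0.05) at 48 h.

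POLR2A (ENSG00000181222, chromosome 17, 7484366 to 7514616, plus strand) encodes the largest subunit, with the C-terminal domain. It was 683, 658 and 726 CPM in siNC and 629, 624 and 637 CPM in siANLN at 24 h, whereas the 48 h libraries held 31.2, 35.2 and 40.6 CPM in siNC and 30.6, 30.0 and 30.5 CPM in siANLN. The siANLN libraries were below all siNC libraries at both times, narrowly so at 48 h, where siNC replicate 1 lay close to them. The fall was 0.13 on the log2 scale at 24 h (edgeR SE 0.03; Benjamini-Hochberg adjusted p = 0.00594), and at 48 h it changed by −0.23 (edgeR SE 0.07; Benjamini-Hochberg adjusted p = 0.00238). Without siNC replicate 3 of the same time neither was called, with log2 changes of −0.09 at 24 h and −0.13 at 48 h. The siNC level differed 19.3-fold between the tables of both times.

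The 5 subunits that Pol II shares with RNA polymerases I and III are POLR2E, POLR2F, POLR2H, POLR2K and POLR2L. At 24 h 0 of them passed the test in edgeR or in DESeq2, and 1, POLR2K, had an unadjusted edgeR p under 0.05, at 57.8, 59.7 and 65.4 CPM in siNC and 54.9, 53.0 and 56.5 CPM in siANLN (log2 −0.15, SE 0.06; edgeR unadjusted p = 0.0107, Benjamini-Hochberg adjusted p = 0.0828). With siNC replicate 1 left out POLR2K was called. At 48 h POLR2E and POLR2F rose, where 43.6% of all genes tested were called (10.8% at 24 h). POLR2E was 151, 149 and 161 CPM in siNC and 175, 185 and 182 CPM in siANLN (log2 0.23, SE 0.03; edgeR Benjamini-Hochberg adjusted p = 2.27e-10). POLR2F gave 0.19 (SE 0.06) and was not called without siNC replicate 1. Changes of the other 3 lay between 0.01 and 0.10 at 48 h.

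**Figure D2:**
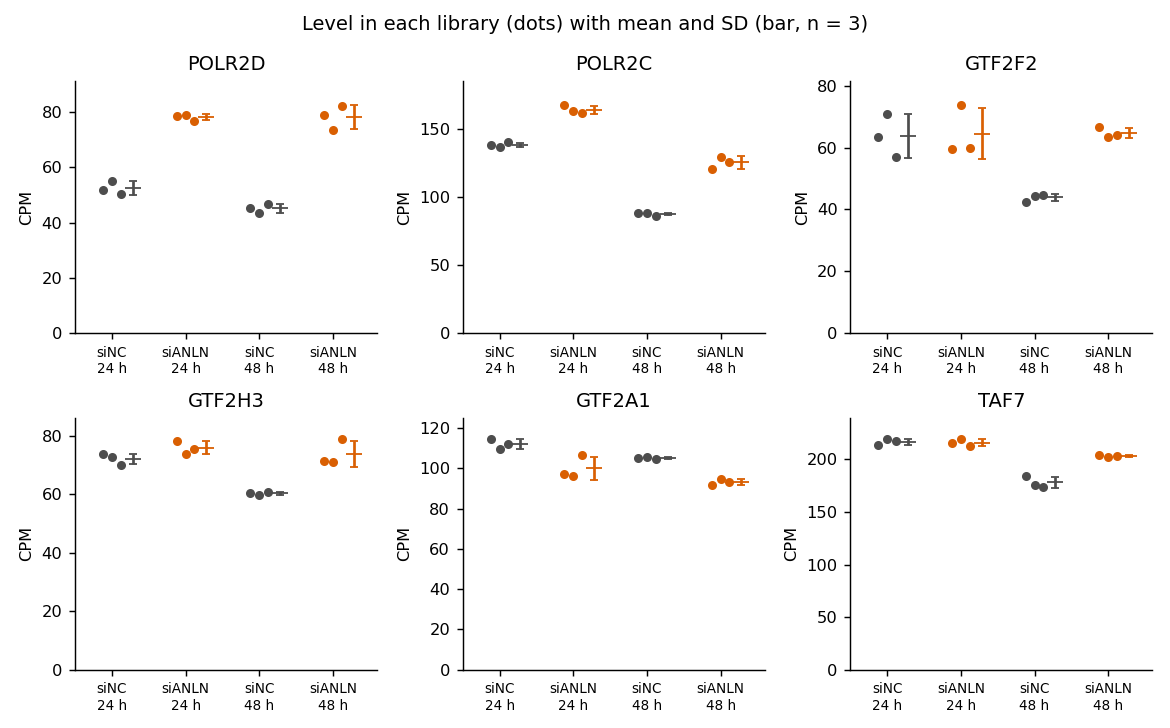
Level in CPM of 6 genes in each of the 12 libraries (dots, replicates 1 to 3 from left to right), with the mean and SD of each group of 3 as a bar beside them; the axes start at 0. POLR2D and POLR2C are higher in siANLN (orange) than in siNC (grey) at both times, GTF2F2, GTF2H3 and TAF7 at 48 h, and GTF2A1 is lower in siANLN at both times. In GTF2F2 at 24 h replicate 2 is the highest dot of both groups (70.9 and 73.9 CPM).

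Of the 14 TFIID genes 1 rose and 0 fell at 24 h in edgeR (0 and 0 in DESeq2, 1 and 1 at an unadjusted edgeR p under 0.05). At 48 h 3 rose and 1 fell, and the medians were 0.0048 at 24 h and 0.0099 at 48 h. The shares called were 7.14% and 28.6%, below the 10.8% and 43.6% of all genes tested. TBP itself, the subunit that bends promoter DNA, gave −0.02 (SE 0.08) and −0.06 (SE 0.06) and was not called. At 24 h TAF5 (ENSG00000148835, chromosome 10, 103367967 to 103389065, plus strand), a WD40-repeat scaffold subunit, was 25.8, 29.9 and 26.6 CPM in siNC and 33.2, 32.1 and 31.9 CPM in siANLN. The groups did not overlap (log2 0.24, SE 0.08; edgeR Benjamini-Hochberg adjusted p = 0.0275). Its call was lost in 5 of 11 alternative settings, namely DESeq2, no filter on low counts, and without siNC replicate 1, siNC replicate 3 or siANLN replicate 1, and at 48 h its change of 0.10 (SE 0.07) was not called.

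At 48 h TAF7, TAF10 and TAF11 rose and TAF8 fell. TAF7, which binds TAF1 and restrains its enzymatic activity, was 184, 176 and 174 CPM in siNC and 204, 202 and 203 CPM in siANLN (log2 0.19, SE 0.03; edgeR Benjamini-Hochberg adjusted p = 5.94e-08), after −0.0041 (SE 0.04) at 24 h. TAF8 and TAF10 encode histone-fold partners of each other and went opposite ways. TAF8 was 30.9, 32.2 and 28.8 CPM in siNC and 26.3, 24.5 and 27.4 CPM in siANLN at 48 h (log2 −0.23, SE 0.07; edgeR Benjamini-Hochberg adjusted p = 0.0042). TAF10 (ENSG00000166337, chromosome 11, 6606296 to 6612667, minus strand) was 24.4, 20.7 and 20.8 CPM in siNC and 21.1, 23.8 and 18.8 CPM in siANLN at 24 h, where the groups overlapped. Its 48 h libraries held 127, 128 and 124 CPM in siNC and 152, 152 and 156 CPM in siANLN, with no overlap (log2 0.28, SE 0.04; edgeR Benjamini-Hochberg adjusted p = 9.81e-13). TAF10 shares 38.9% of its exonic bases with ILK on the opposite strand, and ILK moved much as TAF10 did: 4.02 CPM in siNC at 24 h, and 79.0 CPM in siNC against 98.4 CPM in siANLN at 48 h (log2 0.32, SE 0.04). Reads of TAF10 and ILK cannot be told apart without strand. A further 16.7% of the exonic bases are shared on the same strand with AC091564.3 and AC091564.7, which gave 0.33 (SE 0.06) and 0.19 (SE 0.05) at 48 h, and strand would not tell these apart from TAF10. TAF11, whose partner is TAF13, rose by 0.24 (SE 0.08) at 48 h, a call lost in DESeq2 and without siANLN replicate 3, and TAF13 gave 0.02 (SE 0.04). The 9 TAF genes not called at 48 h lay between −0.12 (TAF9, SE 0.32) and 0.16 (TAF3, SE 0.08).

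Of the 7 genes of TFIIA, TFIIB, TFIIE and TFIIF, 0 rose and 1 fell at 24 h (the same counts in DESeq2 and at an unadjusted edgeR p under 0.05). At 48 h 2 rose and 2 fell (1 and 1 in DESeq2), and the medians were −0.04 at 24 h and 0.08 at 48 h. The shares called were 14.3% and 57.1%, against 10.8% and 43.6% of all genes tested. GTF2A1 (ENSG00000165417, chromosome 14, 81175452 to 81221377, minus strand), which encodes the precursor of the larger TFIIA subunits, was 115, 110 and 112 CPM in siNC and 97.2, 96.3 and 107 CPM in siANLN at 24 h. The 48 h values were 105, 106 and 105 CPM in siNC and 91.7, 94.7 and 93.5 CPM in siANLN. It was lower in all 3 siANLN libraries at each time, with a log2 change of −0.17 at 24 h (edgeR SE 0.05; Benjamini-Hochberg adjusted p = 0.00818) and of −0.18 at 48 h (edgeR SE 0.04; Benjamini-Hochberg adjusted p = 0.000103). The 48 h call was kept in all 11 settings, while the 24 h call was lost without siNC replicate 1, siANLN replicate 1 or siANLN replicate 2. GTF2A2, the small TFIIA subunit, gave −0.05 (SE 0.06) and 0.12 (SE 0.05), not called.

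GTF2F2 (ENSG00000188342, chromosome 13, 45120515 to 45284909, plus strand) encodes the small subunit of TFIIF. At 24 h it was 63.6, 70.9 and 56.8 CPM in siNC and 59.6, 73.9 and 59.7 CPM in siANLN, a full overlap (log2 0.01, SE 0.10). At 48 h it was 42.5, 44.4 and 44.7 CPM in siNC and 66.5, 63.6 and 64.0 CPM in siANLN. The siANLN libraries then stood 1.48-fold above siNC (log2 0.56, SE 0.05; edgeR Benjamini-Hochberg adjusted p = 6.13e-21). Its siANLN mean was 64.4 ± 8.25 CPM at 24 h and 64.7 ± 1.6 CPM at 48 h, and its siNC mean was 63.8 ± 7.03 CPM at 24 h and 43.9 ± 1.19 CPM at 48 h, a difference between separately made tables that was not tested. GTF2F1, the large TFIIF subunit, rose by 0.09 (SE 0.04) at 48 h, a call lost in 7 of 11 alternative settings, namely library size alone, DESeq2 and without any 1 of the libraries other than siANLN replicate 1. In TFIIE, GTF2E2 fell (−0.18, SE 0.06; lost in DESeq2 and without siNC replicate 2) and GTF2E1 gave the same value without passing the test (−0.18, SE 0.08; edgeR Benjamini-Hochberg adjusted p = 0.0538). GTF2B, the single TFIIB subunit, gave −0.03 (SE 0.09) and 0.08 (SE 0.08).

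TFIIH had 10 genes, of which 9 were tested at 24 h (1 higher, 0 lower, median 0.05) and 8 at 48 h (1 higher, 0 lower, median 0.10), with the same counts in DESeq2. At an unadjusted edgeR p under 0.05, 1 was lower at 24 h and 0 at 48 h. Both calls lay in the core, which holds the helicases, 1 of 6 core genes tested at each time. Over all genes tested 10.8% were called at 24 h and 43.6% at 48 h. The kinase module gave 0 calls in edgeR and in DESeq2, of 3 genes tested at 24 h and 2 at 48 h. CCNH at 24 h was the 1 with an unadjusted edgeR p under 0.05. CCNH was also called in the test of the difference between times (0.26, SE 0.08). These numbers are too small to set core and kinase module apart. GTF2H1 (ENSG00000110768, chromosome 11, 18322295 to 18367044, plus strand), a scaffold subunit of the core, was 79.9, 78.6 and 78.6 CPM in siNC and 90.7, 86.0 and 89.8 CPM in siANLN at 24 h (log2 0.17, SE 0.05; edgeR Benjamini-Hochberg adjusted p = 0.0129). The groups did not overlap, and the call was lost without siNC replicate 2 or siANLN replicate 1. At 48 h GTF2H1 was 1.16, 0.899 and 1.26 CPM in siNC and 1.30, 0.935 and 1.39 CPM in siANLN, from 11 to 17 reads in each library, and the SE of its change was 0.34.

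GTF2H3 (ENSG00000111358, chromosome 12, 123633739 to 123662606, plus strand), another core subunit, was 73.6, 72.5 and 70.0 CPM in siNC and 78.3, 73.8 and 75.6 CPM in siANLN at 24 h (log2 0.07, SE 0.05, not called). Its 48 h libraries held 60.3, 59.7 and 60.6 CPM in siNC and 71.3, 70.9 and 78.8 CPM in siANLN. The groups were apart at 48 h, with a rise of 1.22-fold (log2 0.29, SE 0.05; edgeR Benjamini-Hochberg adjusted p = 5.81e-08). The DNA helicase and translocase genes ERCC2 and ERCC3 were not called, with 0.07 and 0.05 at 24 h and 0.11 and −0.04 at 48 h.

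In the kinase module CDK7 (ENSG00000134058, chromosome 5, 69234795 to 69277430, plus strand), the kinase of the Pol II C-terminal domain, was 49.5, 50.8 and 52.0 CPM in siNC and 51.3, 48.8 and 51.6 CPM in siANLN at 24 h (log2 −0.01, SE 0.06; edgeR Benjamini-Hochberg adjusted p = 0.973). With 1, 1 and 3 reads in siNC and 1, 3 and 3 reads in siANLN it could not be tested at 48 h. Its cyclin CCNH was 49.0, 50.5 and 45.6 CPM in siNC and 43.8, 43.3 and 41.6 CPM in siANLN at 24 h. These groups did not overlap, yet the test was not passed (log2 −0.17, SE 0.06; edgeR Benjamini-Hochberg adjusted p = 0.0648). Without siNC replicate 3 CCNH was called (log2 −0.21; edgeR Benjamini-Hochberg adjusted p = 0.0313), and at 48 h the change was 0.07 (SE 0.05). CCNH shares 22.3% of its exonic bases with genes on the opposite strand, among them RASA1, which gave 0.11 (SE 0.05) at 24 h and 0.25 (SE 0.04) at 48 h. GTF2H4 had 1, 5 and 0 reads in siNC and 6, 7 and 10 in siANLN at 24 h, too few for the test, and shares 79.0% of its exonic bases with VARS2 on the same strand. GTF2H2 (ENSG00000145736, chromosome 5, 71032670 to 71067689, minus strand) has near-identical copies, so its counts are uncertain. It was 44.7, 39.9 and 42.5 CPM in siNC and 46.1, 40.5 and 45.3 CPM in siANLN at 24 h. The 48 h libraries held 5.29, 4.33 and 4.21 CPM in siNC and 4.15, 5.10 and 4.75 CPM in siANLN, and the groups overlapped at both times.

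Control levels were similar in the tables of both times for most of the machinery and were far apart for a few genes. Of 42 genes listed in both, 36 had a siNC level at 48 h between 0.393 and 2.10 times that at 24 h, and 6 (14.3%) differed over 4-fold, as did 9.27% of 11876 protein-coding genes. POLR2A went from 689 ± 34.8 CPM at 24 h to 35.7 ± 4.74 CPM at 48 h. TAF9, a histone-fold partner of TAF6, went from 121 ± 2.44 CPM (119, 124 and 120) to 1.44 ± 0.528 CPM (0.827, 1.72 and 1.77). GTF2H1 went from 79.1 ± 0.76 to 1.11 ± 0.187 CPM, GTF2H2 from 42.4 ± 2.41 to 4.61 ± 0.595 CPM, and CDK7 from 50.8 ± 1.21 to 0.139 ± 0.0982 CPM. TAF10 alone of the 6 went up, from 22.0 ± 2.09 to 126 ± 1.87 CPM, 5.76-fold. The siANLN libraries showed the same levels: TAF9 was 108, 112 and 119 CPM at 24 h and 1.22, 1.61 and 1.15 CPM at 48 h (log2 change −0.09, SE 0.04 and −0.12, SE 0.32, not called).

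Neighbours were the 2 nearest protein-coding genes on each side with at least 5 CPM in siNC at 24 h. Genes low at 24 h were thus left out, so the neighbours do not show evenly how often levels rose or fell. Among these neighbours of the 6 genes, some differed over 4-fold between the tables and others did not. Next to POLR2A, siNC levels at 24 h and 48 h were 84.8 and 0.0553 CPM for ZBTB4, and EIF4A1 went the other way, from 16.1 to 827 CPM. SENP3 was within 4-fold, and CHRNB1 was not listed at 48 h. All 4 neighbours of TAF9 (AK6, CCDC125, RAD17 and MARVELD2) were over 4-fold lower at 48 h, AK6 from 27.5 to 0.80 CPM. TAF9 shares 20.6% of its exonic bases with AK6 on the same strand and 14.7% with RAD17 on the opposite one. Beside GTF2H1, LDHA went from 2078 to 0.249 CPM and HPS5 from 67.5 to 1.61 CPM, while SAAL1 and TSG101 were within 4-fold. Beside GTF2H2, SMN1 went from 46.3 to 0.33 CPM and SMN2 and BDP1 also lay over 4-fold lower, while MCCC2 was within 4-fold. Of the neighbours of CDK7, CCDC125 and AK6 were over 4-fold lower, and MRPS36 and CENPH were within 4-fold. The 4 neighbours of TAF10 taken in this way were within 4-fold. Its opposite-strand partner ILK, left out because it was under 5 CPM at 24 h, went from 4.02 to 79.0 CPM. The changes at 24 h and at 48 h were each tested within 1 table, and the test of their difference spans both tables. Time after transfection and the making of the tables cannot be told apart.

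**Figure D3:**
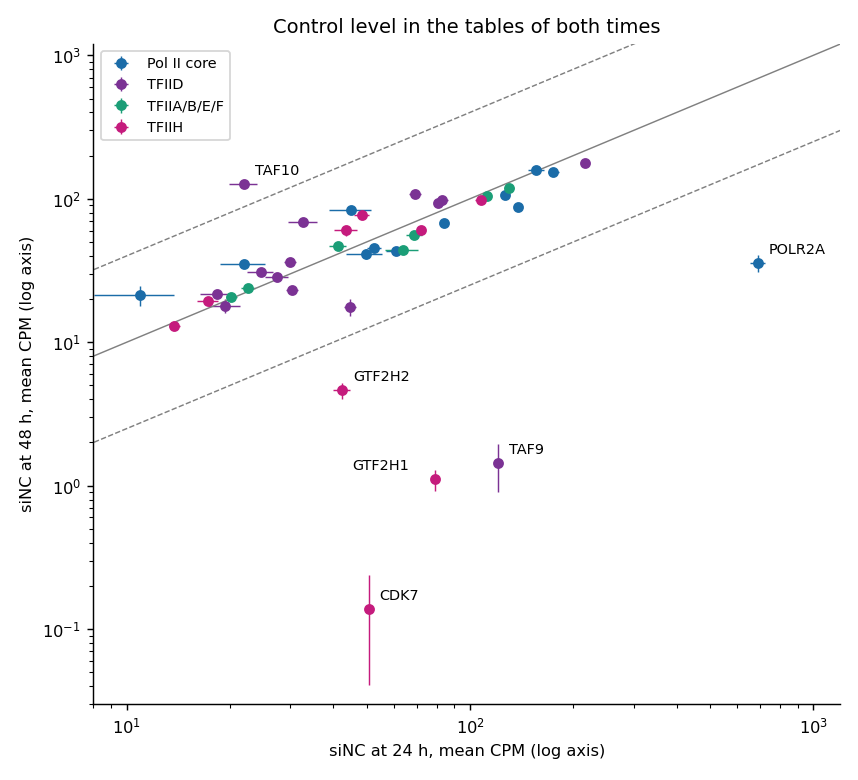
Mean siNC level in CPM at 48 h against that at 24 h for the 42 genes listed in both tables, on log axes, with bars for the SD of 3 libraries. The solid line marks equal levels and the dashed lines a 4-fold difference. The 6 named genes lie outside the dashed lines, TAF10 above and POLR2A, TAF9, GTF2H1, GTF2H2 and CDK7 below, and the other 36 lie between them.

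Levels of different genes can be set side by side within a time on the authors' FPKM, which are scaled by gene length. Some are uncertain because exonic bases are shared with other genes, as for GTF2H4 (79.0%), POLR2I (79.6%) and TAF10 (38.9% with ILK). So are the levels of the 6 genes whose control level differed over 4-fold between the times. The lengths behind the FPKM differ between the tables for some genes, both TAF genes and others, so FPKM ranks are not compared across times. The siNC level at 48 h over that at 24 h was 0.933 in CPM but 0.254 in FPKM for TAF12, and 1.16 against 0.47 for TAF2. For POLR2J it was 1.60 in CPM against 2.32 in FPKM. In siNC at 24 h POLR2A (83.0 ± 4.13 FPKM) and TAF7 (80.0 ± 1.06 FPKM) were highest and differed by less than the SD of POLR2A. TAF13 (49.8 ± 1.93) and TAF9 (47.2 ± 0.956) followed. POLR2D, at 10.1 ± 0.475 FPKM, ranked 10 among the 12 Pol II subunits, below its stalk partner POLR2G at 44.0 FPKM. In CPM they were 52.4 and 84.2, and their annotated exonic bases were 5226 and 1923. FPKM ranks thus depend on the annotated length, which need not be the length of the transcripts in these cells. The lowest were GTF2H4 (0.0482 FPKM), GTF2H5 (1.83) and TAF8 (2.66), of which GTF2H5 and TAF8 have 7565 and 9286 annotated exonic bases. In siNC at 48 h POLR2L (75.0 ± 3.92 FPKM), TAF7 (59.5 ± 1.87), GTF2F1 (42.0 ± 0.507) and TAF13 (39.3 ± 1.75) led, and POLR2D ranked 10 among the 12 subunits (8.72 ± 0.322 FPKM).

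**Figure D4:**
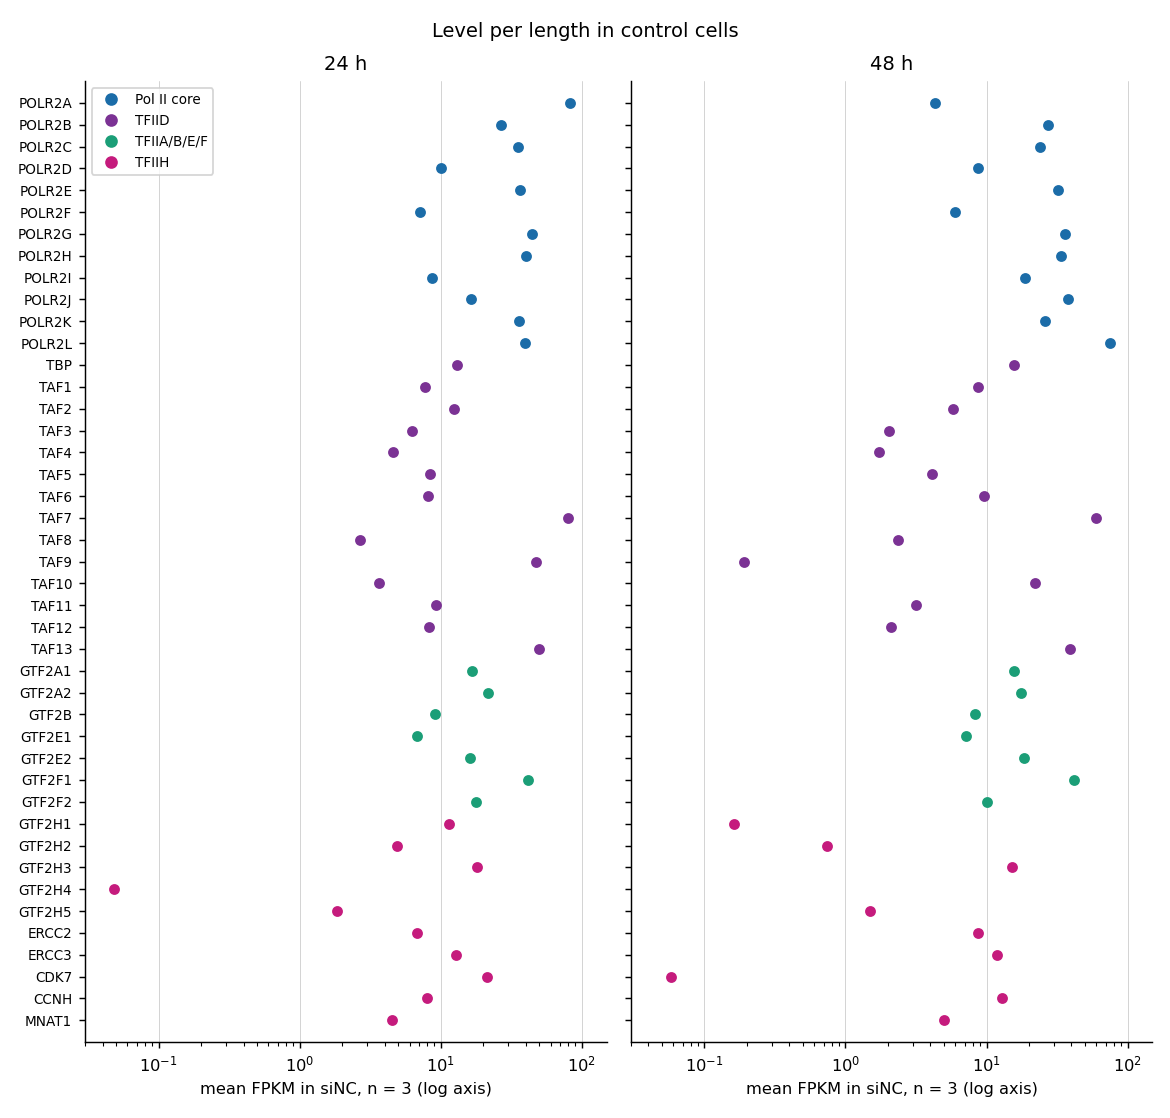
Mean FPKM in siNC of each gene at 24 h (left) and 48 h (right) on log axes, n = 3 libraries. TAF7 lies near the right end at both times, POLR2A does at 24 h (83.0 FPKM), and TAF9, GTF2H1, GTF2H2 and CDK7 lie under 1 FPKM at 48 h.

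Changes at 48 h were set against those at 24 h by a test of the difference itself, over all 12 libraries. Of 42 genes tested, 9 had a change that was higher at 48 h and 0 a lower one at an adjusted p under 0.05 in edgeR, with 1 lower at an unadjusted p under 0.05 (21.4%, against 13.0% of all genes tested, of which 8.29% were higher and 4.71% lower), and DESeq2 called 8 higher and 0 lower. The largest was GTF2F2, with a difference of 0.56 (SE 0.11; edgeR Benjamini-Hochberg adjusted p = 0.0012). TAF10 (0.34, SE 0.09), POLR2C (0.29, SE 0.06), CCNH (0.26, SE 0.08), POLR2E (0.26, SE 0.05), POLR2D (0.24, SE 0.08), GTF2H3 (0.23, SE 0.07), TAF7 (0.21, SE 0.05) and POLR2B (0.16, SE 0.05) made up the rest. By subcomplex these were 4 Pol II subunits, 2 TAFs, 1 TFIIF gene and 2 TFIIH genes. POLR2B, POLR2D and GTF2H3 lost this call with scaling by library size alone and without siANLN replicate 3 of 48 h. POLR2D also lost it without replicate 2 of siNC at either time or siANLN replicate 1 of 48 h, and POLR2B in DESeq2 and without siNC replicate 1 or siANLN replicate 1 of either time, siANLN replicate 3 of 24 h or siNC replicate 2 of 48 h. Both genes that fell at both times, POLR2A and GTF2A1, had differences of −0.09 (SE 0.07) and 0.0039 (SE 0.06), and neither was called.

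Set side by side, the subcomplexes gave 3 of 12 called for the Pol II core, 1 of 14 for TFIID, 1 of 7 for TFIIA, TFIIB, TFIIE and TFIIF and 1 of 9 for TFIIH at 24 h. At 48 h these were 7 of 12, 4 of 14, 4 of 7 and 1 of 8. Over all genes tested 10.8% were called at 24 h and 43.6% at 48 h. In edgeR at 48 h TFIID and TFIIH had lower shares than the background and the other groups higher ones. DESeq2 at 48 h called 5 higher and 1 lower, 2 and 1, 1 and 1, and 1 and 0 in the same order. Over all 16994 genes it called 2903 higher and 2572 lower. The higher share of TFIIA, TFIIB, TFIIE and TFIIF was thus not seen in DESeq2. Of the TFIIH genes, GTF2H1 (SE 0.34) and GTF2H2 (SE 0.17) had few reads at 48 h. Median log2 changes at 48 h were 0.14, 0.01, 0.08 and 0.10 in the same order, and at 24 h −0.0011, 0.0048, −0.04 and 0.05. Of the Pol II core, 11 of 12 genes had a log2 change above 0 at 48 h, POLR2A being the exception, against 6 of 12 at 24 h. Over all genes tested 8335 of 16994 lay above 0 at 48 h and 7153 of 14698 at 24 h. Of the 11, POLR2K (0.01, SE 0.06) and POLR2G (0.04, SE 0.05) lay near 0. Both turned below 0 in at least 1 alternative setting. Differences between subcomplexes were not tested. With the 6 genes of discordant control level left out, 36 genes remained at each time, with 3 higher and 1 lower at 24 h and 11 higher and 3 lower at 48 h.

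Genes around the machinery were looked at in 5 further lists, to be read against the 10.8% of all genes called at 24 h (5.93% higher, 4.86% lower) and the 43.6% at 48 h (22.2% higher, 21.3% lower). Of 9 paralogues and variants of the subunits tested, 0 were called at 24 h in edgeR or DESeq2 (1 higher and 1 lower at an unadjusted edgeR p under 0.05), and 1 rose and 2 fell at 48 h. TAF9B, the paralogue of TAF9, fell from 49.0 ± 1.3 to 37.6 ± 0.99 CPM at 48 h (log2 −0.38, SE 0.06), TAF6L fell (−0.25, SE 0.08) and TAF4B rose (0.22, SE 0.09). DESeq2 called 0 higher and 2 lower in this list at 48 h, so the rise of TAF4B was not called there. Of 20 genes for Pol II assembly, nuclear import and C-terminal domain phosphatases, 0 rose and 4 fell at 24 h (0 and 3 in DESeq2, 1 and 7 unadjusted), and 6 rose and 7 fell at 48 h. The phosphatase gene CTDSP2 fell from 80.9 ± 4.04 to 65.8 ± 2.94 CPM at 24 h and from 133 ± 2.51 to 79.7 ± 1.41 CPM at 48 h (log2 −0.30 and −0.74). RPRD2, a C-terminal domain binding protein gene, changed by −0.34 and −0.46, and RUVBL2, an ATPase of the chaperone complex that helps assemble polymerases, by 0.06 (not called) and 0.41.

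The same shares of all genes, 10.8% and 43.6% called, stand beside the other 3 lists. Of 9 regulators and relatives of TBP complexes, 0 rose and 2 fell at 24 h (0 and 1 in DESeq2, 0 and 3 unadjusted), and 5 rose and 2 fell at 48 h. DR1 and DRAP1 encode the 2 subunits of NC2, a repressor that binds TBP on DNA, and they parted at 48 h. DR1 fell at both times (197 ± 0.525 to 162 ± 2.02 CPM, log2 −0.29, and 184 ± 1.1 to 134 ± 5.01 CPM, log2 −0.46). DRAP1 rose at 48 h (0.34, SE 0.04). Its fall at 24 h was the less firm of the 2 changes, from 172 ± 10.1 to 148 ± 14.3 CPM (−0.21, SE 0.06, edgeR Benjamini-Hochberg adjusted p = 0.016). BTAF1, an ATPase that removes TBP from DNA, gave 0.05 (SE 0.04, not called) and 0.24 (SE 0.04, called). Of the subunits proper to RNA polymerase I, 1 of 8 rose at 24 h and 2 of 7 at 48 h, with 0 lower in edgeR and DESeq2 and 1 lower at each time unadjusted: POLR1B by 0.26 and 0.27 and POLR1E by 0.33 at 48 h. Of 11 subunits proper to RNA polymerase III, 1 rose and 1 fell at 24 h, and 4 rose and 5 fell at 48 h. POLR3D rose by 0.18 and 0.22, and POLR3B fell at both times (−0.44 and −0.43, each SE 0.08). All calls are edgeR calls at a Benjamini-Hochberg adjusted p under 0.05 over all genes.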

How the data were processed

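The deposited tables, 1 pair for each time, hold read counts per gene and FPKM values for each library. Per the submitters' processing notes, the authors used cutadapt 1.18, STAR 2.7.3a with GRCh38, featureCounts and DESeq2 1.44.0. The 24 h table lists 58735 gene IDs. The 48 h table lists 38318, of which 202 stood more than once with identical values and were kept once. The deposited counts were tested, and the authors' FPKM values, scaled by gene length and library total, served only to compare levels between genes and tables.

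Counts were scaled by TMM, filtered with filterByExpr and tested with edgeR 4.0.16 (robust quasi-likelihood F test, two-sided) in R 4.3.3, on each whole table of 6 libraries, or over the 12 libraries and the IDs in both tables for the difference between times. Adjusted p-values are Benjamini-Hochberg over 14698 genes at 24 h, 16994 at 48 h and 17625 for the difference, with a threshold of 0.05. SE is the log2 change divided by the square root of F. The difference comes from its own joint fit, so it need not equal the subtraction of the separate changes. Alternatives were DESeq2 1.42.0 (its size factors, and its Wald test), library size alone, no filter on low counts, a replicate block and leaving out each library. The fits were tested on simulated data. Exon overlaps and 3′ UTRs come from GENCODE 29 and promoters from RefSeq on GRCh38.p14.

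The 43 genes and all lists were chosen with earlier results of these data known. Each library is given for genes called with a log2 change of at least 0.3, for the gene of smallest p in each subcomplex at each time, and for genes whose siNC level differed over 4-fold between tables. Others given by library (POLR2B, POLR2E, POLR2K, TAF7, TAF8, CCNH) were chosen after their values were seen. The values of 1 gene outside the machinery and 1 site of a 3′ UTR word are not reported here. The common biological coefficient of variation was 0.039 at 24 h and 0.020 at 48 h.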

Additional observations from a re-analysis of the deposited data

Results flagged for a closer look

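The change after ANLN siRNA differed between 48 h and 24 h for 9 of the 42 genes tested (21.4%, against 13.0% of all genes), by the test of the difference itself, and in each the change was higher at 48 h (8.29% of all genes). The difference in log2 change was 0.16 for POLR2B, 0.29 for POLR2C, 0.24 for POLR2D and 0.26 for POLR2E in the Pol II core. It was 0.21 for TAF7 and 0.34 for TAF10 in TFIID, 0.56 for GTF2F2 in TFIIF, and 0.23 for GTF2H3 and 0.26 for CCNH in TFIIH. POLR2C and POLR2D had already risen at 24 h, and the other 7 were not called then. TAF10 is the gene of the 9 whose control level differed over 4-fold between the tables. Time after transfection and the making of the tables cannot be told apart.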

How the results depend on the processing

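Under 11 alternative settings at each time, the calls of POLR2C and POLR2D at 24 h (2 of 6) and of 10 of 16 genes at 48 h (POLR2B, POLR2C, POLR2D, POLR2E, TAF7, TAF8, TAF10, GTF2A1, GTF2F2 and GTF2H3) were kept in each, and for the difference between times 6 of 9 were kept in 17 settings. Leaving out 1 library gave 2 to 4 genes higher and 1 to 2 lower at 24 h, 9 to 14 higher and 3 to 4 lower at 48 h, and 6 to 11 higher and 0 lower for the difference. Without siANLN replicate 1 the 24 h counts were 2 higher and 1 lower (TAF5, GTF2H1 and GTF2A1 lost), and without siANLN replicate 2 there was 1 lower. Among genes within 4-fold between the tables, an alternative chosen after seeing the data, 1 was lower at 24 h. With library size alone 1 gene (TAF8) had a lower change at 48 h than at 24 h. That scaling moved all genes from 3778 higher and 3624 lower to 3138 and 4265 at 48 h, and the difference from 1461 and 831 to 953 and 1190. Directions turned for values near 0, among them, with library size alone, GTF2H2 at 48 h (−0.020) and the difference of GTF2A1 (−0.045), and with no filter that of TAF9 (0.0044). Leaving out 1 library, changes at 24 h ranged from −0.14 to 0.034 for TAF10, −0.097 to 0.097 for GTF2F2 and −0.023 to 0.023 for CDK7. Those at 48 h ranged from −0.39 to 0.055 for TAF9 and −0.050 to 0.12 for GTF2H2. Differences ranged from −0.18 to 0.017 for POLR2A, −0.28 to 0.17 for TAF9, −0.020 to 0.050 for GTF2A1, −0.15 to 0.13 for GTF2H1 and −0.088 to 0.089 for GTF2H2. The cause was not tested. Libraries of the same replicate number correlated weakly in their deviations from the group means (−0.08 to 0.08). The best match of siNC replicates 1 and 2 at 24 h was the siANLN library of the same number, and of none at 48 h. The SE of GTF2F2 at 24 h was 0.095 in the main fit and 0.055 with the replicate block. Pairing at 24 h was therefore not excluded. With the replicate block the counts of genes of the machinery were 4 higher and 2 lower at 24 h, 12 and 4 at 48 h, and 9 and 0 for the difference. DESeq2 called 3 and 2 at 24 h, 9 and 3 at 48 h and 8 and 0 for the difference. Few reads limit TAF9, GTF2H1, GTF2H2 and CDK7 at 48 h, and why their reads were few was not tested. TAF9 and GTF2H1 had SEs of 0.32 and 0.34 and a change of the size of that of POLR2C (0.52) would not have been detectable.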
